A study of Mus musculus with 7 samples.

Results

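The 10 genes described here, Ccn1, Ccn2, Ankrd1, Axl, Myof, Crim1, Ptpn14, Ajuba, F3 and Nuak2, are known as direct targets of the transcriptional coactivator YAP. They were taken by name from the 55228 rows of a table of read counts per gene, and each had 1 row. Their levels were compared between 3 libraries of Fhl2 knockout (Fhl2 KO) and 4 of wild-type (WT) mouse granulosa cells, the cells that line the ovarian follicle and feed the egg, taken as primary cells. All libraries carried the labels C57BL/6J, ovary and no treatment. The sources used here give neither the kind of Fhl2 allele nor the age of the mice, nor whether a library held cells of 1 or of several animals. The series title places follicle growth and EGF, EGFR and YAP signalling at the centre of the study, so the question for these genes was whether their transcripts differed between the genotypes.

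YAP and its relative TAZ do not bind DNA themselves. In the nucleus they join TEAD factors, which recognise the DNA core GGAATG, and the pair switches on genes of growth, adhesion and matrix. The Hippo kinases MST and LATS phosphorylate YAP and keep it in the cytoplasm, and some YAP targets in turn restrain YAP, which makes a feedback loop. Levels of Ccn1, Ccn2 and Ankrd1 are widely read as a sign of YAP activity, and in the ovary these genes are known to respond when follicles are cut or stretched. Several of the targets also respond to serum response factor (SRF), AP-1 or growth factor signals, so they are not readouts of YAP alone.

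Promoter windows from 250 bases before to 50 bases after the transcript start (RefSeq, build GRCm38.p6) were at hand for 8 of the 10 genes. They are shown because TEAD binding near the start is a common feature of YAP targets. Capitals mark GGAATG or its reverse complement CATTCC, and in F3 the AP-1 motif TGANTCA. The windows lie at chr19:36119795-36120094 on the minus strand (Ankrd1), chr3:145649936-145650235 on the minus strand (Ccn1), chr3:121723287-121723586 on the plus strand (F3) and chr19:38043528-38043827 on the minus strand (Myof). All are written along the strand of the gene.
Ankrd1: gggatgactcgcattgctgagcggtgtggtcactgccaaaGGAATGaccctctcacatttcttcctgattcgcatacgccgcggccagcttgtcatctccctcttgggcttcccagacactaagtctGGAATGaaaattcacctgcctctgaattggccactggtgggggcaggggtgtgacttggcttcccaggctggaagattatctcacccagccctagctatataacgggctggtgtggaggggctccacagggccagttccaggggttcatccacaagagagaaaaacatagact
Ccn1: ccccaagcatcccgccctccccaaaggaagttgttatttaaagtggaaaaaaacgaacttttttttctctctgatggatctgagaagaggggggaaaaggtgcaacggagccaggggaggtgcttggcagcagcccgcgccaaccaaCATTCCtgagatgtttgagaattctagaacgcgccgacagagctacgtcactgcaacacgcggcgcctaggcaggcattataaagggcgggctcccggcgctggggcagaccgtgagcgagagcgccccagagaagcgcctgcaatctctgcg
F3: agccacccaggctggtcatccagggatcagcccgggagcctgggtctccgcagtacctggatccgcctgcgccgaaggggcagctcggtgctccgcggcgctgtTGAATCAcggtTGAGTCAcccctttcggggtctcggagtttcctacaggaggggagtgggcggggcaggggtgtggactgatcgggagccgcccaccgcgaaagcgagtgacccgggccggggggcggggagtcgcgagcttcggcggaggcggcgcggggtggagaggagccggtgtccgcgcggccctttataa
Myof: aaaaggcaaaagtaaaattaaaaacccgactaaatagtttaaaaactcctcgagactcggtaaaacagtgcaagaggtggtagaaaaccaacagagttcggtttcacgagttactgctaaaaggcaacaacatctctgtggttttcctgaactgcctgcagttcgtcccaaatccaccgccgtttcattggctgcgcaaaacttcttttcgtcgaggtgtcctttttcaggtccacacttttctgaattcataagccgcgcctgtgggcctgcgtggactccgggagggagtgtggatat

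The TEAD core was found on either strand in 6 of the 8 windows (75%), in Ankrd1, Ccn1, Ajuba, Axl, Crim1 and Ptpn14, whereas it occurred in 14.7% of 32851 RefSeq windows of the same length. The other 4 of these genes are shown as 40-base stretches turned so that the core reads GGAATG, which lets the flanks be compared. They lie at chr14:54577825-54577864 (plus strand) and chr14:54577803-54577842 (plus strand) for the overlapping stretches of Ajuba, chr7:25788944-25788983 (minus strand) for Axl, chr17:78200152-78200191 (plus strand) for Crim1 and chr1:189728105-189728144 (minus strand) for Ptpn14.
Ajuba, first: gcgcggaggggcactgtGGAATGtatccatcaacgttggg
Ajuba, second: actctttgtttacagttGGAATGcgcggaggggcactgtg
Axl: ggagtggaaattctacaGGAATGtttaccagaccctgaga
Crim1: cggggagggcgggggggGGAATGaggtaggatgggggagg
Ptpn14: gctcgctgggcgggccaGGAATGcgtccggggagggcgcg

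Ankrd1 and Ajuba each held 2 cores, and all matches in the windows of these genes lay upstream of the RefSeq start. For Ankrd1, Axl and Ajuba the RefSeq start is not a GENCODE transcript start, and both cores of Ankrd1 lie inside the gene span that GENCODE gives. F3 held 2 AP-1 motifs and no TEAD core, and the AP-1 motif was present in 7.81% of all windows. No window of these genes held a CArG box, the DNA element of SRF, which 1.63% of all windows did. Of 8 windows at hand from 13 further genes used as YAP target signatures, 2 held the TEAD core (Amotl2 and Lats2), and 1 (Amotl2) did without the bases after the start. A match is a stretch of letters and was not measured as a binding site here.

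**Figure D1:**
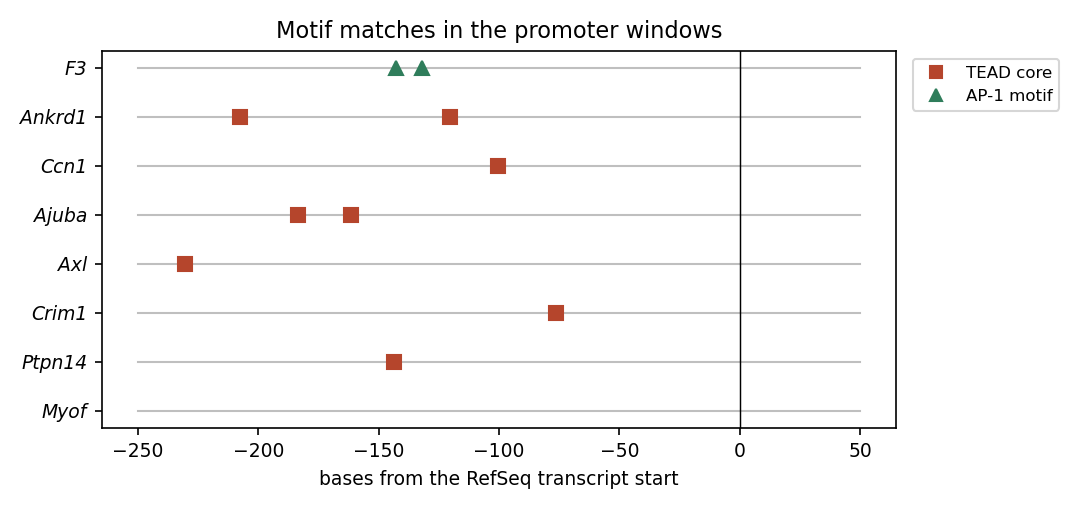
Positions of motif matches in the promoter windows of 8 YAP target genes, in bases from the RefSeq transcript start (horizontal axis, 0 is the start), 1 line per gene. Squares mark the TEAD core and triangles the AP-1 motif; 6 genes carry a TEAD core, F3 carries 2 AP-1 motifs, and Myof carries neither.

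Library totals ran from 38855596 to 45455488 counts in Fhl2 KO and from 39007770 to 50514556 in WT, so that a floor of 3 counts equals 0.0594 to 0.0772 CPM (counts scaled by the TMM-adjusted library total). Fhl2 itself, examined to check the labels, stood at 47.9, 66.7 and 60.3 CPM in Fhl2 KO libraries 1 to 3 and at 100.9, 114, 106 and 109.8 CPM in WT libraries 1 to 4, so that 54.2% of the WT level remained. Of 15798 genes tested with edgeR, 29.0% passed an adjusted p of 0.05, 13.5% higher and 15.6% lower in Fhl2 KO. That count of 4588 genes dropped to 1657 when Fhl2 KO library 3 was left out, to 2994 or 2960 when WT library 3 or WT library 4 was, and to 781 (1.63% of genes higher and 2.97% lower, 4.60% in all) for Fhl2 KO library 1 alone against WT. The libraries differed in how levels followed transcript length: per doubling of length, log2 CPM relative to the mean of all libraries changed by -0.00109, -0.175 and -0.137 in Fhl2 KO libraries 1 to 3 and by 0.0604 to 0.0872 in the WT libraries. Values corrected for transcript length and GC content are therefore given beside the uncorrected ones.

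Of the 9 YAP target genes with enough counts to be tested, 3 rose in Fhl2 KO (F3, Ankrd1 and Ccn2), 1 fell (Myof) and 5 did not pass the test (Ccn1, Ajuba, Axl, Crim1 and Ptpn14). The called share, 4 of 9, stands beside 29.0% of all genes tested. The changes were small, from 1.30-fold to 1.43-fold for the genes that rose and to 61.8% of the WT level for Myof. The median log2 fold change of the 9 genes was 0.16, against 0.00 over all genes tested. After the correction for length and GC, 2 of the 9 were higher and 1 was lower (all genes: 11.8% higher and 10.6% lower), and the median was 0.13, against 0.01 over all genes. A correction for length alone left the same 3 genes called, F3, Ankrd1 and Myof (all genes: 9.71% higher and 9.29% lower), and scaling by library totals alone kept the 4 calls (30.1% of all genes). With Fhl2 KO library 1 alone against WT, Ankrd1 was higher and Myof lower, and the other 7 did not pass. Without Fhl2 KO library 3, Ankrd1 alone was higher and Myof lower (all genes: 4.09% higher and 6.14% lower, 10.2% in all). Without Fhl2 KO library 1, 4 were higher (with Ajuba) and 2 lower (with Ptpn14), where the share called over all genes was also larger (20.6% higher and 21.1% lower, 41.6% in all).

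**Figure D2:**
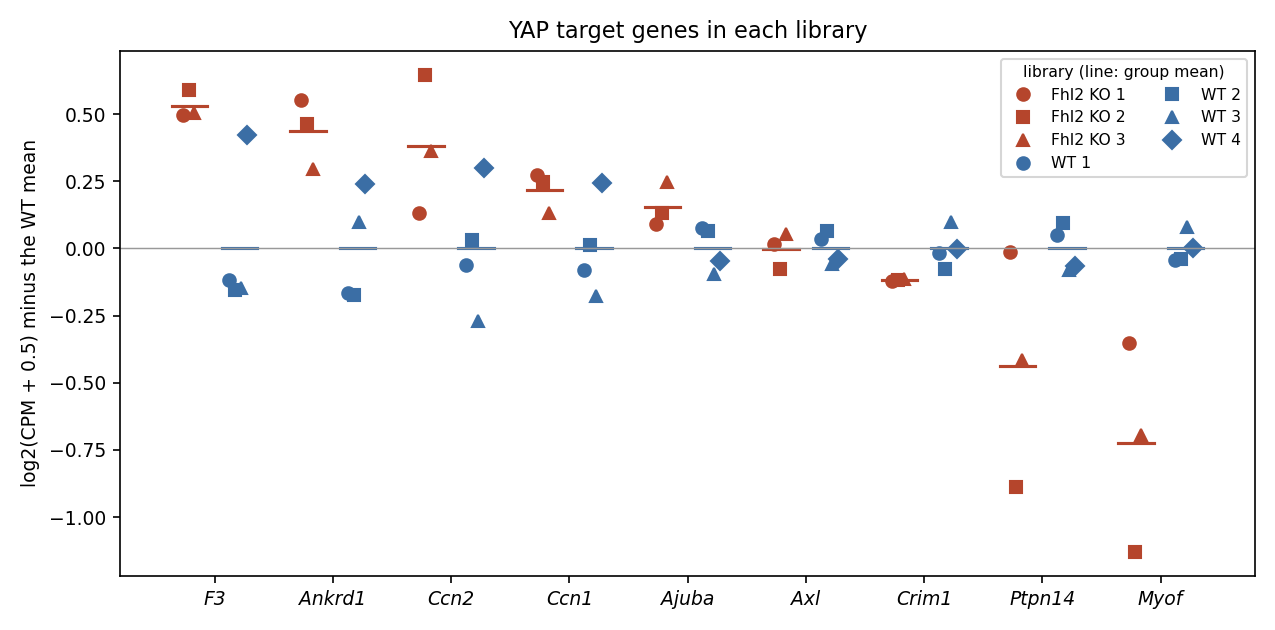
Level of each tested YAP target gene in each library, as log2(CPM + 0.5) minus the mean of the 4 WT libraries (vertical axis). Red symbols are the 3 Fhl2 KO libraries, blue symbols the 4 WT libraries, and bars the group means; the Fhl2 KO libraries lie above all WT libraries for F3, Ankrd1 and Ajuba and below them for Crim1 and Myof.

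Ccn1 and Ccn2 encode secreted matricellular proteins that bind integrins and are the most used YAP targets. Ccn1 (chromosome 3, 145646976 to 145649981, minus strand, mm10) stood at 2186, 2143 and 1980 CPM in Fhl2 KO libraries 1 to 3 and at 1709, 1824, 1597 and 2139 CPM in WT libraries 1 to 4. The groups overlapped through WT library 4, which lay within the Fhl2 KO range. Ccn1 did not pass the test (log2 fold change 0.21, SE 0.102, 95% interval -0.003 to 0.42, adjusted p in edgeR = 0.128), and its corrected value was 0.09 (SE 0.090, interval -0.10 to 0.28). Without WT library 4 the value was 0.30 (adjusted p in edgeR = 0.0578).

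Ccn2 (chromosome 10, 24595442 to 24598683, plus strand) stood at 687, 981 and 806 CPM in Fhl2 KO and at 599, 640.0, 520 and 772 CPM in WT. It was high in Fhl2 KO libraries 2 and 3, whereas Fhl2 KO library 1 lay below WT library 4. Ccn2 rose with an adjusted p just under the threshold (log2 fold change 0.38, SE 0.136, adjusted p in edgeR = 0.0495). When a library was left out, the call was lost for Fhl2 KO library 2 (log2 fold change 0.25, adjusted p = 0.160), Fhl2 KO library 3 (adjusted p = 0.142) and WT libraries 1 (0.101), 2 (0.083) and 3 (0.130). It was also lost after the correction (log2 fold change 0.37, adjusted p = 0.0897) and for Fhl2 KO library 1 alone (0.12, adjusted p = 0.823). An exon of Ccn2 overlaps the opposite-strand gene Gm15270, which had at most 22 counts in any library. The strand setting of the counting is unknown here, so such reads may not be separated.

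Ankrd1 (chromosome 19, 36111961 to 36120099, minus strand) encodes an ankyrin repeat protein found in the nucleus and in the muscle sarcomere and is among the targets most closely followed by YAP activity. It stood at 117, 110.1 and 98.0 CPM in Fhl2 KO and at 71.0, 70.6, 85.4 and 94.3 CPM in WT. Every Fhl2 KO library was above every WT library, and WT library 4 came closest. Ankrd1 rose 1.35-fold (log2 fold change 0.43, SE 0.108, adjusted p in edgeR = 0.00815) and remained so after the correction (0.38, SE 0.091, adjusted p = 0.00842). It was past the threshold in the 19 alternative settings tried, with log2 fold changes of 0.32 to 0.54.

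F3, Axl, Crim1 and Myof are membrane proteins. F3, or tissue factor, is the cell-surface receptor that starts blood clotting (chromosome 3, 121723537 to 121735048, plus strand). Its level was 143, 153 and 144 CPM in Fhl2 KO and 93.4, 90.9, 91.5 and 136 CPM in WT. The Fhl2 KO libraries were close together and above all WT libraries, and WT library 4 stood apart from the other 3. F3 rose 1.43-fold (log2 fold change 0.51, SE 0.127, adjusted p in edgeR = 0.00939), with a corrected value of 0.44 (SE 0.118, adjusted p = 0.0198). Without WT library 4 the value was 0.68. The call was lost without Fhl2 KO library 3 (log2 fold change 0.52, adjusted p = 0.0502) and for Fhl2 KO library 1 alone (0.48, adjusted p = 0.463).

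Axl (chromosome 7, 25757273 to 25788705, minus strand), a receptor tyrosine kinase bound by GAS6, held 1441, 1351 and 1476 CPM in Fhl2 KO and 1458, 1487, 1368 and 1385 CPM in WT. The groups lay within one another. The log2 fold change was 0.00 (SE 0.086, 95% interval -0.18 to 0.18, adjusted p in edgeR = 0.990). Crim1 (chromosome 17, 78200248 to 78376592, plus strand), a transmembrane protein that binds BMP ligands, held 495, 497 and 498 CPM in Fhl2 KO and 533, 511, 577 and 538 CPM in WT. Each Fhl2 KO library was below the WT libraries, but the difference did not pass the test (log2 fold change -0.12, SE 0.085, 95% interval -0.30 to 0.06, adjusted p in edgeR = 0.309), and the corrected value had the opposite sign (0.19, SE 0.083, adjusted p = 0.112). Exons of Crim1 overlap those of Fez2 on the opposite strand, which held 3481 to 5415 counts per library.

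Myof (chromosome 19, 37899036 to 38043577, minus strand) encodes myoferlin, a calcium-binding membrane protein of vesicle fusion and membrane repair. It was at 177, 103 and 139.6 CPM in Fhl2 KO and at 219.6, 220.1, 239 and 227 CPM in WT. All Fhl2 KO libraries were below the WT libraries, with library 2 lowest. Myof fell by 0.69 in log2 CPM (SE 0.141, adjusted p in edgeR = 0.00398). After the correction it fell by 0.35 (SE 0.077, adjusted p = 0.0052), close to the value of -0.36 (SE 0.089, adjusted p = 0.0212) in Fhl2 KO library 1 alone. The 19 alternatives gave log2 fold changes from -0.88 to -0.35, all past the threshold.

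Ptpn14, Ajuba and Nuak2 encode intracellular proteins that act on the pathway. Ptpn14 is a tyrosine phosphatase that binds YAP and holds it in the cytoplasm (chromosome 1, 189728268 to 189876695, plus strand). Its level was 95.4, 51.8 and 72.1 CPM in Fhl2 KO and 99.6, 102.9, 91.1 and 91.9 CPM in WT. Fhl2 KO library 1 lay among the WT libraries and libraries 2 and 3 lay below. Ptpn14 did not pass (log2 fold change -0.40, SE 0.165, 95% interval -0.76 to -0.03, adjusted p in edgeR = 0.094). Its value was 0.00 after the correction (SE 0.072, interval -0.16 to 0.15), -0.02 for Fhl2 KO library 1 alone and -0.62 without that library (adjusted p = 0.000358). Ajuba, a LIM-domain scaffold that binds LATS kinases (chromosome 14, 54567472 to 54577558, minus strand), was at 203, 209 and 227 CPM in Fhl2 KO and at 201, 199.9, 179 and 185 CPM in WT. The libraries did not overlap, by a narrow margin. The log2 fold change was 0.16 (SE 0.087, 95% interval -0.03 to 0.34, adjusted p in edgeR = 0.192), and it was 0.21 (adjusted p = 0.0364) without Fhl2 KO library 1.

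Nuak2 (chromosome 1, 132316126 to 132333488, plus strand), an AMPK-related kinase that promotes YAP activity, was near the floor. It had 2, 4 and 12 counts in Fhl2 KO and 6, 10, 12 and 2 counts in WT. It did not reach the count minimum for testing, and a difference between the groups was not detectable at this depth.

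Groups without overlap were 3 of 9 upward (F3, Ankrd1 and Ajuba) and 2 of 9 downward (Crim1 and Myof), beside 16.4% and 17.7% of all genes tested. For F3, Ankrd1, Ccn2 and Ccn1 alike, WT library 4 was the highest of the WT libraries. Pairs of genes were compared by the root mean square difference over the 7 libraries in log2 CPM relative to the WT mean. It was smallest for Axl and Ajuba (0.112), Axl and Crim1 (0.118) and F3 and Ankrd1 (0.150), and largest for F3 and Myof (0.875). The difference is also small where both genes vary little. Axl and Crim1 had opposite signs in Fhl2 KO libraries 1 (0.02 and -0.12) and 3 (0.05 and -0.12), though not in library 2 (-0.08 and -0.12). Ccn1 and Ccn2 differed by 0.188. Myof and Ptpn14 differed by 0.210, both with Fhl2 KO library 2 lowest and Fhl2 KO library 1 highest of their group.

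**Figure D3:**
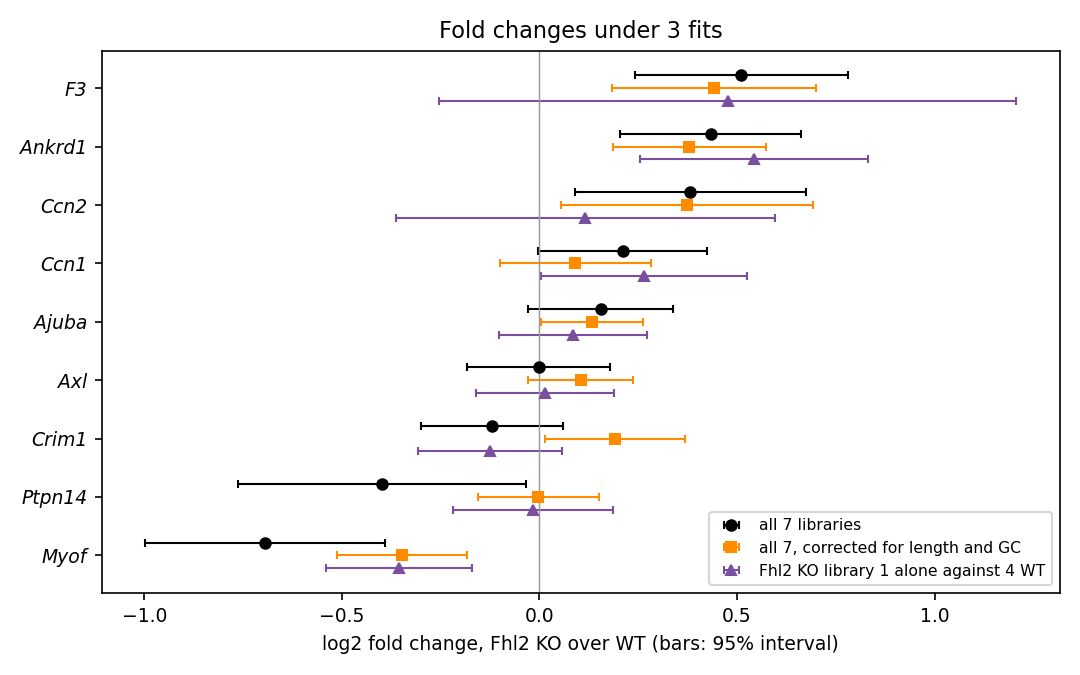
Log2 fold change, Fhl2 KO over WT, of the 9 tested YAP target genes (horizontal axis, bars are 95% intervals) in all 7 libraries (black), after correction for transcript length and GC content (orange) and for Fhl2 KO library 1 alone against the 4 WT libraries (purple). Ankrd1 stays near 0.4 to 0.5 and Myof below 0 in the 3 fits, whereas Ptpn14 is at -0.40 only in the uncorrected fit of all libraries.

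The fold changes were grouped by transcript length, though not in strict order. The genes with the 4 shortest transcripts, F3 (1872 bases), Ccn1 (2019), Ankrd1 (2020) and Ccn2 (2490), had the 4 highest log2 fold changes, and those with the 3 longest, Crim1 (5995), Myof (7094) and Ptpn14 (10746), had the 3 lowest. Over all genes tested, the median log2 fold change was 0.11 among transcripts of 1925 to 2404 bases and -0.38 among those of 6519 bases or more, of which 47.5% fell. With the correction, 7 of the 9 genes had log2 fold changes above 0, from 0.09 for Ccn1 to 0.44 for F3, Ptpn14 was at 0.00 and Myof at -0.35. What the trend with length comes from was not tested.

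**Figure D4:**
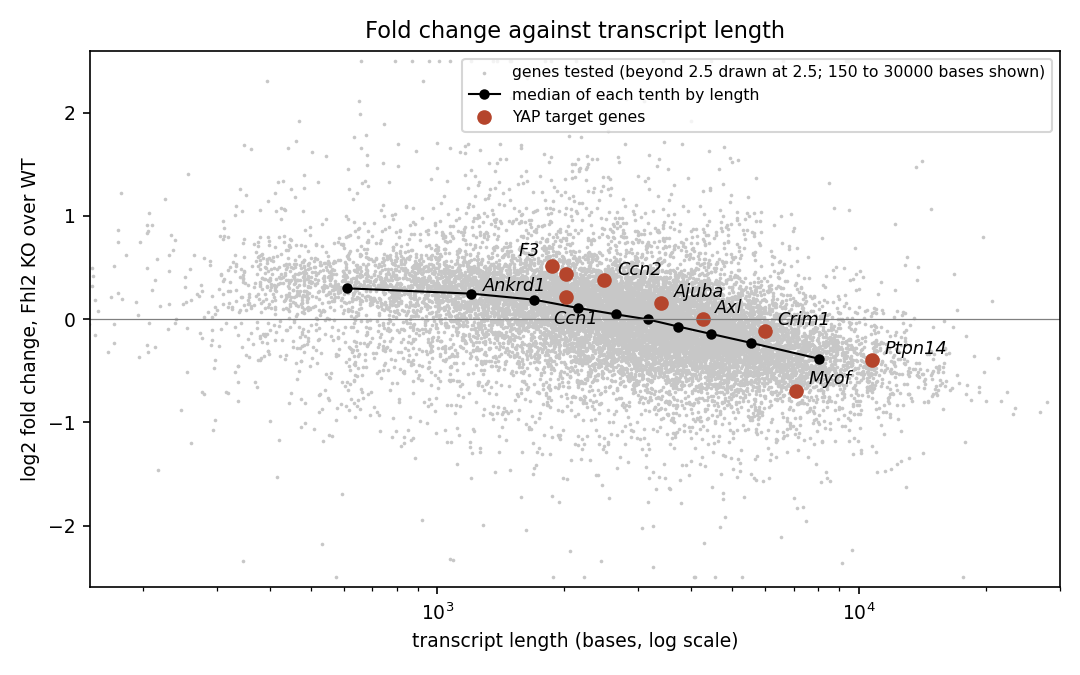
Log2 fold change, Fhl2 KO over WT (vertical axis), against transcript length in bases (horizontal log axis) for all genes tested (grey) and the 9 YAP target genes (red). Black points are medians of 10 bins of genes by length and fall from 0.30 to -0.38; most red points lie above that line, Myof below it.

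Levels were compared between genes per kilobase of transcript. In Fhl2 KO the order was Ccn1 (1042 ± 53.9 CPM per kb, SD, n = 3), Axl (334 ± 15.2), Ccn2 (331 ± 59.4), Crim1 (82.9), F3 (78.4), Ajuba (62.7), Ankrd1 (53.7), Myof (19.7), Ptpn14 (6.80) and Nuak2 (0.043). In WT it was Ccn1 (900.0 ± 116 CPM per kb, SD, n = 4), Axl (334 ± 13.4), Ccn2 (254 ± 42.2), Crim1 (90.0), Ajuba (56.3), F3 (55.0), Ankrd1 (39.8), Myof (31.9), Ptpn14 (8.97) and Nuak2 (0.053). The ranges of neighbours in this order overlapped only for Axl and Ccn2 in Fhl2 KO and for Ajuba and F3 in WT. Ccn1 ranked 46th and Ptpn14 6114th of 15574 genes by WT level per kilobase.

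The genes whose pattern was nearest were sought among 8693 other genes with a mean of at least 10 CPM. For Ccn1 these were the matrix protease gene Adamts1 (root mean square difference 0.043 over 7 libraries), Spry2 (0.052), an inhibitor of receptor tyrosine kinase signalling, and Irak2 (0.073). For Ccn2 they were Rasl11b (0.101), Dusp6 (0.106), a phosphatase of ERK, and Mt3 (0.108). For Ankrd1 they were the complement regulator Cd55 (0.104), B2m (0.108) and the kinase of pyruvate dehydrogenase Pdk4 (0.119).

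Of 13 further genes used in YAP target signatures, 12 were tested, of which 5 fell, 1 rose and 6 did not pass (median log2 fold change -0.15, corrected -0.05). Over all genes, 15.6% were lower and 13.5% higher, and 10.6% and 11.8% after the correction. Nt5e, the ectonucleotidase that makes adenosine, rose by 1.92 in log2 CPM (SE 0.125, adjusted p in edgeR = 3.14e-08, corrected 2.09). Ccdc80, a secreted matrix protein, fell by 0.99 (SE 0.101, adjusted p in edgeR = 5.06e-06, corrected -0.83). Both remained past the threshold in the 19 alternatives. Dock5 (-0.83, corrected -0.41), Asap1 (-0.50, corrected -0.19), Rbms3 (-0.48, corrected -0.10) and Tgfb2 (-0.40, corrected -0.13) also fell, and of these 4 Dock5 alone passed after the correction. Leaving out Fhl2 KO library 3 or any 1 WT library ended the Dock5 call, and leaving out Fhl2 KO library 3 or WT library 3 that of Asap1 (adjusted p up to 0.0949 for Dock5 and 0.494 for Asap1 over the alternatives). Igfbp3, Fjx1, Gadd45a, Lats2, Amotl2 and Arhgef17 did not pass, with log2 fold changes from -0.18 to 0.39, and Foxf2 had too few counts to be tested.

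Of 8 YAP, TAZ, TEAD and VGLL factors, 2 fell and 6 did not pass (all genes: 15.6% lower and 13.5% higher, corrected 10.6% and 11.8%). Tead1, a DNA-binding partner of YAP, fell by 0.47 (SE 0.108, adjusted p in edgeR = 0.00483) and was at -0.01 after the correction (adjusted p = 0.958). Wwtr1, which encodes TAZ, fell by 0.26 with an adjusted p of 0.0469 that was over 0.05 without any 1 library other than Fhl2 KO library 2 (edgeR). Yap1 stood at -0.24 (SE 0.090, adjusted p in edgeR = 0.0513, corrected -0.08) and Tead2 at 0.21 (adjusted p = 0.0803, corrected 0.19). After the correction none of these 4 passed, and of the 8 Vgll3 alone was called, at 0.21 (adjusted p in edgeR = 0.0438), against an uncorrected value of -0.13 (adjusted p = 0.331). No other alternative called Vgll3, and its adjusted p was 0.102 with the correction for length alone.

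Of 10 Hippo kinases and scaffolds, 5 fell and none rose (all genes: 15.6% lower and 13.5% higher), with a median log2 fold change of -0.30. After the correction 2 were lower and 1 higher (all genes: 10.6% lower and 11.8% higher), with a median of -0.12. The higher one was the LATS cofactor Mob1b, at 0.31 corrected (adjusted p in edgeR = 0.013) and -0.05 uncorrected (adjusted p = 0.740). Wwc1, or KIBRA, a scaffold upstream of LATS, fell by 0.83 (SE 0.135, adjusted p in edgeR = 9.90e-04) and by 0.75 after the correction. Amot, which ties YAP to cell junctions, fell by 0.44 (corrected -0.05), the kinase gene Stk4 by 0.39 (corrected -0.12) and the LATS cofactor Mob1a by 0.33 (corrected -0.13), and these 3 did not pass after the correction. The junction scaffold Amotl1 was the fifth that fell (-0.60, corrected -0.23). Leaving out Fhl2 KO library 3 ended the calls of Amotl1, Stk4 and Mob1a, and leaving out Fhl2 KO library 2 that of Stk4. The Amotl1 call was also lost with the correction for length alone (-0.22, adjusted p in edgeR = 0.0916). For Fhl2 KO library 1 alone the values were -0.19 for Amotl1, -0.13 for Stk4, -0.26 for Mob1a and -0.39 for Amot.

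SRF and its MRTF cofactors are regulators that several YAP targets share. Of 14 genes known as their targets, 6 fell, 3 rose and 5 did not pass (all genes: 15.6% lower and 13.5% higher), with a median of -0.37. After the correction 8 were lower and 1 higher (all genes: 10.6% lower and 11.8% higher), with a median of -0.29. The contractile genes Acta2 (-0.85), Cnn1 (-1.07), Tpm1 (-0.67) and Myl9 (-0.64) fell, also after the correction, and the actin genes Actb and Actg1 and the adhesion gene Zyx rose, of which Zyx alone passed after it. The groups overlapped for Actb and Actg1, whose calls were lost when Fhl2 KO library 2 or 3 or WT library 1, 3 or 4 was left out, and that of Zyx was lost for Fhl2 KO library 3 and WT libraries 1, 3 and 4. Of 6 immediate early genes, 3 rose and 1 fell, beside the same shares of all genes. Junb rose by 0.64 (SE 0.131, adjusted p in edgeR = 0.00373, corrected 0.44), Atf3 by 0.60 (corrected 0.49) and Ier2 by 0.36 (corrected 0.13, no longer past the threshold), and Fos fell by 0.35 (corrected -0.45). The calls of Junb, Atf3, Ier2 and Fos were lost for Fhl2 KO library 1 alone, and that of Fos also when Fhl2 KO library 3, WT library 2 or WT library 4 was left out.

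**Figure D5:**
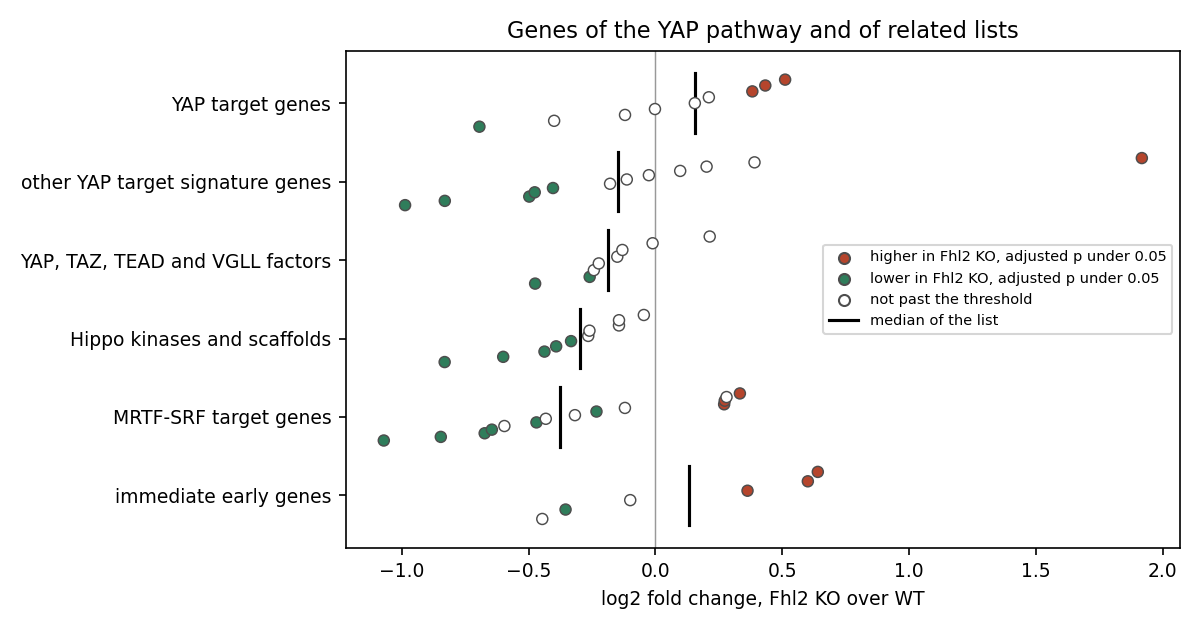
Log2 fold change, Fhl2 KO over WT (horizontal axis), of each tested gene in 6 lists (rows), uncorrected for length. Filled symbols passed an adjusted p of 0.05 (red higher, green lower in Fhl2 KO) and bars are list medians; the 10 Hippo kinases and scaffolds all lie below 0, and the YAP target genes lie on both sides.

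The marker sums of some other cell types differed between the genotypes, and those of others overlapped. The calls among markers are uncorrected and stand beside 15.6% lower and 13.5% higher of all genes tested. The length and GC correction (all genes: 10.6% lower and 11.8% higher) changed the counts of some lists. With it, smooth muscle markers had 5 lower (with Tagln), luteal markers 3 higher (with Prlr) and surface epithelium markers 3 higher. Granulosa markers had 4 lower and 2 higher, and theca markers 1 higher and none lower. The counts of the other marker lists stayed the same. The summed level of 6 fibroblast and stroma markers was 118 to 163 CPM in Fhl2 KO and 364 to 421 CPM in WT, with 4 lower and none higher. The collagen genes Col3a1, Col1a1 and Col1a2 carried this sum. Dcn and Lum were under 1 CPM in every library and did not pass. The Fhl2 KO mean was above that of WT for Dcn and below it for Lum. The sum of 8 smooth muscle and pericyte markers was 467 to 545 CPM in Fhl2 KO and 883 to 977 CPM in WT, with 4 lower of 7 tested. Acta2 carried this sum, with a mean of 490 CPM in Fhl2 KO and 882 CPM in WT. Des, Tagln and Pdgfrb did not pass, and Rgs5 was at 0 in all libraries. Tagln was at -0.43 uncorrected and passed after the correction (-0.61, adjusted p in edgeR = 0.00794). Acta2 and Cnn1 are on this list and on that of SRF targets. The sum of 6 surface epithelium markers was 138 to 181 CPM in Fhl2 KO and 109 to 125 CPM in WT, with 4 higher. Krt8 and Krt18 carried this sum, and Krt8 did not pass. The 6 endothelial markers summed to 3.91 to 4.69 CPM in Fhl2 KO and 4.02 to 4.83 CPM in WT, and the 6 immune markers to 20.2 to 24.7 CPM in Fhl2 KO and 20.5 to 21.8 CPM in WT, with none called and Cd3e at 0. The 5 lung epithelium markers summed to 1.08 to 22.7 CPM in Fhl2 KO and 0.128 to 0.418 CPM in WT, with 2 higher, and the 5 oocyte markers to 2.85 to 6.85 CPM in Fhl2 KO and 2.37 to 6.48 CPM in WT, with 1 lower. The part of these cells in the values of F3, Ankrd1, Ccn2 and Myof was not tested, and fewer cells of a type and less RNA per cell cannot be told apart in bulk libraries. The 10 granulosa cell markers summed to 4109 to 4956 CPM in Fhl2 KO and 4571 to 5285 CPM in WT, with 5 lower and 3 higher of 9 tested. Inhba and Inha carried this sum and moved in opposite directions. Inhba fell, with a mean of 2026 CPM in Fhl2 KO and 3095 CPM in WT. Inha rose, with a mean of 1699 CPM in Fhl2 KO and 1042 CPM in WT. Amh, Foxl2, Nr5a2 and Fst also fell, and Fshr and Kitl also rose. Aromatase (Cyp19a1) had 8, 17 and 6 counts in Fhl2 KO and 0 in WT. The theca markers Cyp17a1 and Insl3 had at most 3 counts in any library. The sum of 5 theca markers, carried by Aldh1a1, was 7743 to 8210 CPM in Fhl2 KO and 6099 to 6715 CPM in WT. Of the 3 tested, 1 was higher and 1 lower. Aldh1a1 rose (log2 fold change 0.31, corrected 0.30), Ptch1 fell (-0.54, corrected -0.16) and Nr2f2 did not pass (-0.28, corrected -0.07). The 5 luteal markers, of which Parm1 carries the sum, came to 195 to 278 CPM in Fhl2 KO and 231 to 247 CPM in WT, with 2 higher and none lower of 4 tested. The 2 higher were Ptgfr, the prostaglandin F receptor, with 29, 44 and 44 counts in Fhl2 KO and 0 in each WT library, and Akr1c18, a progesterone-degrading enzyme, with 51, 89 and 67 counts in Fhl2 KO and 2, 6, 5 and 6 counts in WT.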

How the data were processed

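HISAT2 2.2.1 and featureCounts 1.6.4 are among the tools listed in the submitters' processing notes, which also name fastp, SAMtools, DESeq2 1.28.1, Cufflinks 2.2.1 and mm10. TRIzol extraction and a stranded mRNA library kit were used, per the labels' protocols. The deposited values are whole-number read counts per gene symbol, not normalized by the authors. Neither the strand setting nor the annotation release is given in the sources used here, so reads of overlapping genes on opposite strands may not be separated. The series' design text speaks of 5 samples, while 7 libraries are labelled.

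The test was that of edgeR 4.0.16 under R 4.3.3 (filterByExpr, minimum count of 10, TMM scaling, robust quasi-likelihood test, genotype as the only term), with Benjamini-Hochberg adjustment over 15798 genes. CPM are TMM-scaled, fold changes are Fhl2 KO over WT, and SE are on the log2 scale. Transcript length and GC came from the longest coding transcript in GENCODE M21 (15574 tested genes). In the correction, each library's spline trend of log2 CPM on both (4 degrees of freedom) entered as an offset. The fit was tested on counts simulated without a trend with length. It recovered 81% of 2-fold and 47% of 1.5-fold changes there, so a gene that did not pass may still differ. Only 100 genes per fold were changed among 15538, and 10 unchanged genes were called. In the data 29.0% of genes were called, which makes the adjustment less strict, so these shares need not hold there. Libraries may not be separate animals, so p-values measure only the spread between libraries, which may be technical. Floors cover counting error only. Genes and lists were chosen with earlier results of these data known. Beside the YAP targets and 13 signature genes, the text names up to 4 genes with the smallest p per pathway list and the 3 nearest genes by pattern; marker genes are given as list sums, and single markers, Amotl1, Mob1b, Vgll3, Actb, Actg1 and Zyx were named after their values were seen. Alternatives were DESeq2 1.42.0, limma 3.58.1 (voom with quality weights), other scalings and filters, no robust estimation, a replicate block, the corrections, each library left out, and Fhl2 KO library 1 alone, whose spread was assumed to be that of WT.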

Additional observations from a re-analysis of the deposited data

Results flagged for a closer look

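Among the 49 genes named with values, 2 had 1 WT library that stood apart from the other 3 (gap to the nearest library over the range of the 4, above Dixon's 95% critical value); chance flags about 1 in 20 such groups. F3 was at 143 to 153 CPM in Fhl2 KO, against 136 CPM in WT library 4 and 90.9 to 93.4 CPM in the other WT libraries. Cnn1 was at 5.85 CPM in WT library 2 and at 4.30 to 4.34 CPM in the others.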

How the results depend on the processing

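The calls of Ankrd1 and Myof held in the 19 alternatives, and that of F3 in 17. Of the YAP targets, 2 were lower, the second being Ptpn14, with DESeq2, voom, no low-count filter and the replicate block; 1 was higher for Fhl2 KO library 1 alone. Leaving out 1 library gave 1 to 4 higher and 1 to 2 lower. Over all genes, 1657 to 6740 were called when 1 library was left out (662 to 3331 higher, 995 to 3409 lower), 781 for Fhl2 KO library 1 alone (277 higher, 504 lower), 3001 with the length correction (1467 lower) and 2309 with block and correction together (1107 higher, 1202 lower). The block gave 3301 calls (1228 higher) against 2960 in the same 6 libraries without it; the counts gave no sign of pairing (correlations of same-numbered deviations of -0.0324 to 0.0326, and 1 of 3 Fhl2 KO libraries correlated best with its own number). The 14.7% and 75% shares of promoters with a TEAD core were 12.6% and 75% without the bases after the start, where 6, 1 and 0 genes still held the 3 motifs. The split of calls turned with library totals alone (2626 higher, 2129 lower). It also turned with the length correction (1534 and 1467) and with the length and GC correction (1865 and 1674). The median log2 fold change moved by under 0.1.

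Sign changes among the YAP targets and signature genes, none of them past the threshold in the first fit, were these. Axl was at 0.00667 with DESeq2 and with median-of-ratios factors, 0.0137 with voom, 0.0131 with a filter of 10 CPM, 0.0143 for Fhl2 KO library 1 alone, 0.0373 with library totals, 0.104 and 0.145 with the corrections, 0.097 with block and correction, and -0.0299 to 0.0437 with 1 library left out. Crim1 was at 0.19 and 0.17 with the corrections and 0.18 with the block added, and Ptpn14 at 0.0242 with the length correction. Amotl2 was at 0.0308 with the length correction and 0.17 for Fhl2 KO library 1 alone (-0.26 to 0.00329 with 1 library left out), Lats2 at 0.016 with library totals, 0.20 and 0.21 with the corrections and 0.22 with the block added (-0.0684 to 0.0265), Fjx1 at -0.0898 for Fhl2 KO library 1 alone, Gadd45a at -0.0693 and -0.12 with the corrections (-0.0125 to 0.18), and Arhgef17 at 0.17 and 0.25 with the corrections, 0.17 with the block added and 0.0561 for Fhl2 KO library 1 alone. Of these sign changes, that of Arhgef17 with the length correction passed the threshold (adjusted p in edgeR = 0.037; 0.0102 to 0.810 over its alternatives). Among the pathway genes, Vgll3 (0.21) and Mob1b (0.31) also changed sign and passed with the length and GC correction. The causes were not tested.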
